A study of Mus musculus with 6 samples.

Results

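The genes described here encode the subunits of the mitochondrial respiratory chain, that is, of complexes I to IV and of ATP synthase, also called complex V. Members were taken by gene symbol (the mt-Nd, mt-Co, mt-Cytb and mt-Atp genes, Ndufa, Ndufb, Ndufc, Ndufs and Ndufv with a number, Sdha to Sdhd, and symbols beginning with Uqcr, Cox4 to Cox8 or Atp5) and had to be present in all 6 gene lists by Ensembl identifier. The rule gave 100 genes of 21485 shared identifiers, 87 nuclear-encoded and 13 encoded by the mitochondrial genome. The nuclear members comprised 37 genes of complex I, 4 of complex II, 8 of complex III, 21 of complex IV and 17 of complex V, with Ndufa4 and Ndufa4l2 placed in complex IV. Of the 100, 97 passed the filter on low counts. The complex I gene 1700029P11Rik and the testis-type isoform genes Cox7b2 and Cox8c did not. A few symbols are imprecise: 4 members carried a different symbol in the other gene list, Ndufb1-ps (Ndufb1 in that list) is annotated as a non-coding RNA, and Gm11273 is a copy of Cox5b.

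The respiratory chain passes electrons from NADH (complex I) and succinate (complex II) through complex III to oxygen at complex IV, and the proton gradient that this builds drives ATP synthesis at complex V. The mitochondrial genome encodes core subunits of every complex except complex II, while all other subunits are made from nuclear genes and imported. Several complex IV subunits exist in a widespread form and in a form typical of heart and skeletal muscle, such as Cox6a1 and Cox6a2, and the muscle forms are known to appear when myoblasts become myotubes.

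The cells were muscle-derived stem/progenitor cells (MDSPCs), slowly adhering mouse muscle cells that were enriched by repeated transfer of the cells that had not yet attached and then expanded in proliferation medium. There were 3 populations from young and 3 from old mice, each 1 sample of droplet-based 3′ single-cell RNA sequencing. The labels give no age, sex, strain, genotype or treatment and do not say whether a population came from 1 animal or several, so p-values measure the spread between these 6 cultures. The names of old replicates 2 and 3 share a stem (NA-f2 and NA-f3), and whether these cultures are related is not stated. Young replicate 1 and old replicate 1 were counted on a shorter gene list (21849 features) and the other 4 samples on a longer one (32285 features), so each list held both ages, with 1 young and 1 old sample on the shorter list and 2 of each on the longer.

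Before filtering, total counts of unique molecular identifiers (UMIs, tags that let each RNA molecule be counted once) ranged from 133974782 to 196481316 per sample. After filtering, 61673 cells were kept. Any pair of samples shared between 24 and 41 cell barcodes. The 10 myogenic markers summed to between 402 and 1978 CPM (UMI counts scaled to equal library totals) in young samples and between 358 and 2650 CPM in old ones, but Pax7 was at 0.02 CPM in young replicate 3 and Myf5 at 0.01 CPM in young replicate 1. The 13 genes of early muscle differentiation, such as Myog and the fetal myosins, summed to 946, 2978 and 227 CPM in young replicates 1, 2 and 3 and to 148, 1547 and 13272 CPM in old ones. Marker sums in this paragraph are plain CPM, while values of single genes are CPM with the TMM scaling described below. Some genes listed as markers of other cells were also detected. The 7 fibro-adipogenic markers summed to between 206 and 434 CPM and 3 tenocyte markers to between 125 and 304 CPM, both with overlapping ages. The first sum was mainly Gsn, Col3a1 and Smoc2, with Pdgfra, Dcn, Dpt and Lum each under 2 CPM. The second was nearly all Scx, with Tnmd at most 0.02 CPM. Smooth muscle and pericyte markers reached 88.0 CPM (mostly Notch3) and Schwann markers 21.8 CPM (mostly Ngfr), each in young replicate 2. These sums alone do not show that such cells were present, and the part of any such cells in the results was not tested. Immune markers summed to at most 8.25 CPM in any sample. Endothelial markers summed to under 2 CPM except in young replicate 2 (59.4 CPM, nearly all Tek, with Pecam1 at 0.34 and Cdh5 at 0.11).

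In all, respiratory chain genes took 7.11%, 7.14% and 6.14% of the UMIs of young replicates 1, 2 and 3, and 6.06%, 7.29% and 7.28% of those of old replicates 1, 2 and 3. The levels below are the UMI counts summed over the kept cells of a sample, as CPM scaled with TMM factors (trimmed mean of M-values, a correction for composition). In 3′ counting each captured molecule counts once whatever its length, and levels are compared between samples, not between genes, unless a share or ratio is named.

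Promoter sequences of 4 nuclear members are given as examples of promoters with a motif match, and no result rests on them. Cox8a and Cox8b are the widespread and the muscle form of one subunit, whose levels are given inside and outside differentiating cells. Cox6a1 and Atp5k were among the 57 of 84 nuclear members higher in both old samples of the longer list, against 20.2% of all genes tested. On the shorter list both were lower in the old sample than in the young one. Cox7a1, another muscle form, had no E-box match. A link between motif and level was not tested. Each runs from 250 bases before to 50 bases after the RefSeq start in GRCm38.p6, 5′ to 3′ on the gene's strand, all 4 on the minus strand: chr19:7217567-7217866 for Cox8a, chr7:140900397-140900696 for Cox8b, chr5:115348909-115349208 for Cox6a1 and chr5:108434350-108434649 for Atp5k. Capitals mark matches to an ETS motif in Cox8a, which appear as ACTTCCGG, the reverse complement of CCGGAAGT. In Cox8b they mark an E-box of the kind that myogenic factors bind (CAGCTG), and in the last pair the NRF1 palindrome.
Cox8a: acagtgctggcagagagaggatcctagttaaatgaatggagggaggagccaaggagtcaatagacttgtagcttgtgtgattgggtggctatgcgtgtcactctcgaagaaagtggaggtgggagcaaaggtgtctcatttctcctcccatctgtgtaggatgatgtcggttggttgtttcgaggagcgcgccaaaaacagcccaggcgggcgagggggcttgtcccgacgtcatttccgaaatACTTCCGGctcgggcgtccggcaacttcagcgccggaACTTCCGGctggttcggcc
Cox8b: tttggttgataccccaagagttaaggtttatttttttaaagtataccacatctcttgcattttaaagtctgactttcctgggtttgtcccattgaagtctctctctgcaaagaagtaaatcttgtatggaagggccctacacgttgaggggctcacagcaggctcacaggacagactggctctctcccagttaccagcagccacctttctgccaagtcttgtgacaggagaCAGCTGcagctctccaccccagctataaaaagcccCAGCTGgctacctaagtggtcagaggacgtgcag
Cox6a1: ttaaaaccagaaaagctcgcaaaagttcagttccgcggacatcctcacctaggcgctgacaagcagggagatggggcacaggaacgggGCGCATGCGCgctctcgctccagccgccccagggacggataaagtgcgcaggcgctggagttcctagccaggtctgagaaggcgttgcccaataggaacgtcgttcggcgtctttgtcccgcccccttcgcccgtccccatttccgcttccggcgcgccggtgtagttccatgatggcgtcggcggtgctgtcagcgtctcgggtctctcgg
Atp5k: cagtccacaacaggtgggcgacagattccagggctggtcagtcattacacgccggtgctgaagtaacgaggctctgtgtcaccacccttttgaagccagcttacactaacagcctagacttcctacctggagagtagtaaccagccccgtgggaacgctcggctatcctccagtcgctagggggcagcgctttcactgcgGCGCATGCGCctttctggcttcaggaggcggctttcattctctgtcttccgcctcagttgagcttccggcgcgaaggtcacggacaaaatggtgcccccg

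RefSeq promoters were matched for 70 of the 87 nuclear members and searched on both strands. Shares are counted by gene, and some genes have more than 1 promoter (32851 promoters in all). The NRF1 motif, bound by nuclear respiratory factor 1, an activator of many respiratory chain genes, stood in 5 of 70 members (7.14%) and in 1.07% of all 27025 genes with a promoter. The YY1 motif AAGATGGC stood in 10 of 70 members (14.3%) against 3.19% of all genes. For the ETS motif the shares were 7.14% (5 of 70) and 4.31%, and for the E-box 10.0% (7 of 70) and 18.3%. The NRF1 palindrome reads the same on both strands, as does this E-box, and no motif here contains another. Base composition differs between the sets, with a median GC content of 57.3% in the members' promoters and 52.7% in all promoters, and its part in these shares was not tested. A match is a description of letters and not a measured binding site.

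In the comparison of old with young, which the study's design names, 0 of the 97 members tested passed an adjusted p of 0.05 in edgeR's quasi-likelihood test with a term for the gene list, in either direction. Over all 14512 genes the same test called 1 gene, or 0.00689%. At an unadjusted p under 0.05 it had 0 of 97 members and 3.53% of all genes, and DESeq2 also called 0 members (of 270 genes called, 1.78% of those with an adjusted p). The lowest unadjusted member p was 0.0734, for Cox6b2 (edgeR, adjusted p = 1.00, as for every member). The median log2 fold change, old over young, was 0.08 for the 84 nuclear members tested, -0.20 for the 13 mitochondrial members and -0.01 for all genes. The nuclear median has no stable sign: leaving out young replicate 3 gave -0.13 and leaving out old replicate 3 gave -0.027. Leaving out either sample of the shorter list gave 0.48. The list term then takes up the other sample of that list, so this value rests on the longer-list samples only. The fold change was above 0 in 58 of 84 nuclear and in 5 of 13 mitochondrial members, against 48.9% of all genes. Counts were also simulated with the overall spread of these samples given to every gene (a biological coefficient of variation of 0.563). The test returned 5.66% of genes changed by 1.5 and 55.3% of genes changed by 3 on the log2 scale. At a coefficient of 0.2 it returned 100% of both. The spread of single members differs from the overall value, and no smaller change was simulated. Whether changes of the size seen for most members could be detected was therefore not tested.

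In the nuclear sums of all 5 complexes, young replicate 1 and old replicates 2 and 3 were the 3 highest samples, although young replicate 2 was close to them in complex II. Complex I nuclear genes summed to 15841, 10347 and 8347 CPM in young replicates 1, 2 and 3 and to 9021, 12772 and 13565 CPM in old replicates 1, 2 and 3. Young replicate 1 was thus the highest of all 6 samples and old replicate 1 lower than young replicate 2, while old replicates 2 and 3 stood above young replicates 2 and 3. The difference in mean log2 level was 0.06 (two-sided exact permutation p = 0.9 with 3 against 3, where the smallest possible p is 0.1).

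Complex III, which holds the fewest genes after complex II, had the widest spread between samples, 2.71-fold. Its nuclear genes summed to 7781, 3840 and 2869 CPM in young samples against 3681, 5477 and 5058 CPM in old ones. Complex IV gave 18017, 11768 and 10003 CPM in young samples against 9477, 13116 and 16186 CPM in old ones. Both repeated the pattern of complex I, with young replicate 1 highest.

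For complex V the sums were 17141, 11990 and 8926 CPM in young samples against 10396, 12900 and 14072 CPM in old ones. Complex II, whose 4 genes make succinate dehydrogenase, spread least among the nuclear sums (1.51-fold) with 627, 604 and 432 CPM in young samples against 465, 644 and 650 CPM in old ones. The old-young differences in log2 were 0.08 for complex II (exact p = 0.5), 0.08 for III, -0.03 for IV and 0.01 for V (exact permutation p = 1 for each of these 3), and the adjusted p over the 6 sums was 1 throughout. Differences under 0.1 changed sign with the scaling or the cells for complexes IV and V, and therefore give no direction.

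**Figure D1:**
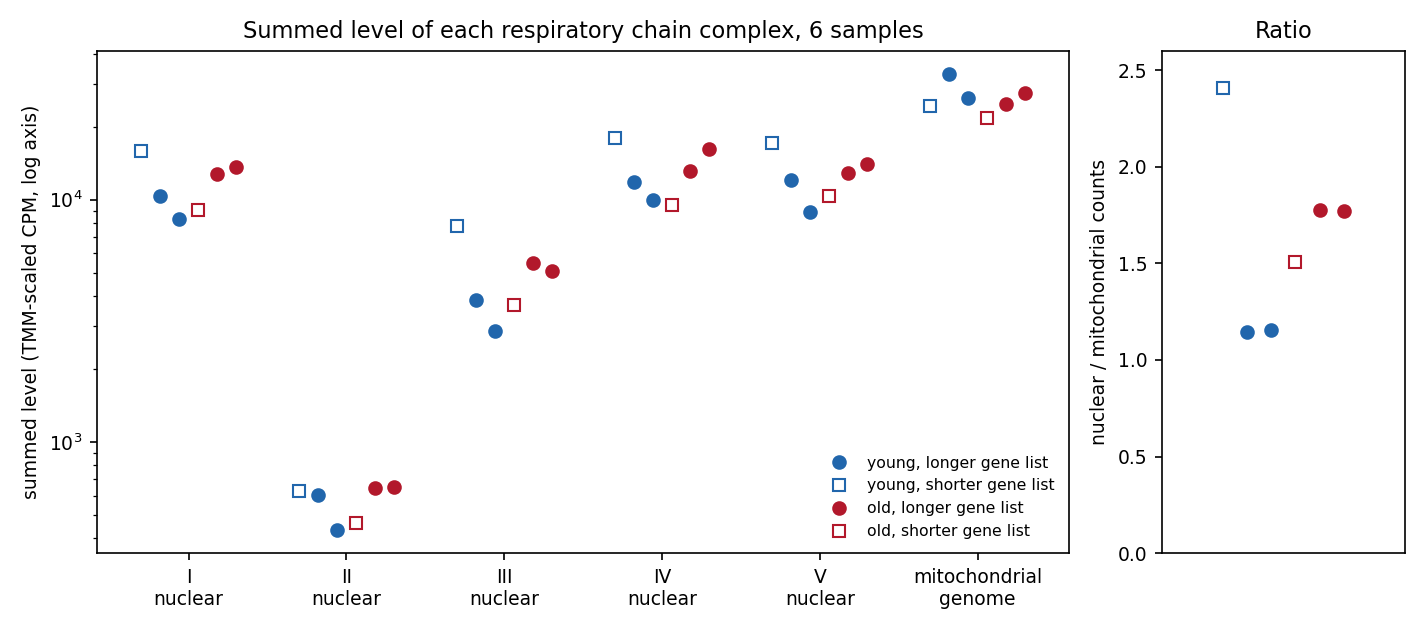
Summed TMM-scaled CPM of the nuclear members of each complex and of the 13 mitochondrial genes (left, log axis), and the ratio of nuclear to mitochondrial counts for complexes I, III, IV and V (right, axis from 0). Each point is 1 sample, in the order young 1, 2, 3 and old 1, 2, 3, blue young and red old, with open squares for the shorter gene list. In each nuclear sum young replicate 1 or old replicate 3 is the highest, while the mitochondrial sum is highest in young replicate 2.

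Split by gene list, the nuclear genes differed between old and young in opposite directions. On the longer list both old samples lay above both young samples in 57 of 84 nuclear members and below both in 0, against 20.2% and 20.1% of all genes tested. The mean difference on that list was above 0 in 81 of 84 (50.5% of all genes), with a median of 0.45. On the shorter list, with 1 sample of each age, the old sample was lower in 75 of 84 (49.5% of all genes), with a median of -0.70. In all, 73 of 84 nuclear members were higher in old on the longer list and lower on the shorter, a combination found in 29.5% of all genes. It is not particular to the chain: the differentiation genes split the same way in 13 of 13, with medians of 2.36 and -2.80. Of 10 genes of cell division, 8 split the other way. The part of differentiation or division in the members' pattern was not tested.

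The shorter list, with 1 sample of each age, was not fitted alone. In the edgeR fit of the 4 longer-list samples, 17 of 97 members had an unadjusted p under 0.05 against 6.84% of all genes, 0 passed adjustment, and the lowest adjusted p was 0.722. All 15 nuclear genes among the 17 were higher in old, a direction and p held by 4.6% of all genes. A term for the difference of the old-young change between the lists, added after these directions had been seen, called 0 of 97 members (edgeR, lowest adjusted p = 0.823), with an unadjusted p under 0.05 for 39 of them and for 5.25% of all genes. It measures the same opposite directions again, with 1 sample against 1 on the shorter list, and is no independent evidence of them. The gene list is tied to 1 culture of each age, so a difference between lists and a difference between cultures cannot be told apart.

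**Figure D2:**
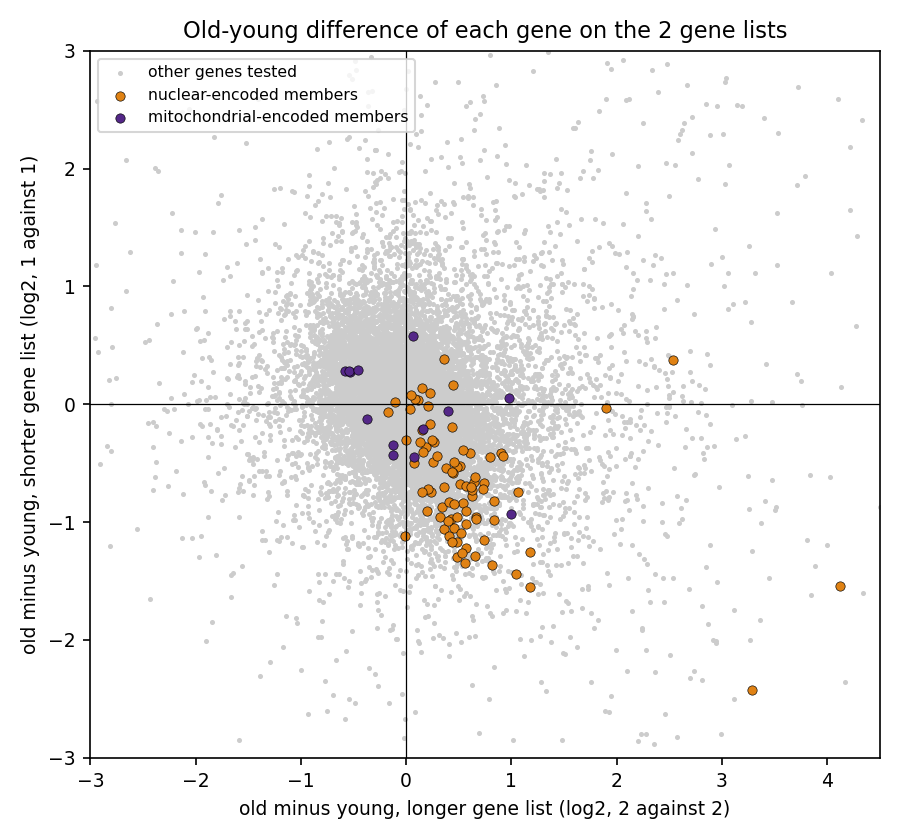
Old minus young difference in log2 level of each gene on the longer list (x, 2 against 2 samples) and on the shorter list (y, 1 against 1). Grey points are other genes tested (those beyond the axes are not shown), orange nuclear members and purple mitochondrial members. Of the 84 nuclear members, 73 lie in the lower right quadrant, while the mitochondrial members lie on both sides of 0 on each axis.

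Among the nuclear genes of complex I, the entry point for electrons from NADH, Ndufb11 had the largest and Ndufc2 the smallest fold change. Ndufb11, an accessory subunit of the membrane arm (X chromosome, 20615326 to 20617619, GRCm38), stood at 374, 434 and 298 CPM in young samples against 223, 950 and 596 CPM in old ones. Old replicates 2 and 3 were highest and old replicate 1 lowest, so the groups overlapped (log2 fold change 0.49 ± 0.48 SE). For Ndufc2, also of the membrane arm, the levels were 498, 492 and 385 CPM in young samples against 240, 496 and 626 CPM in old ones (-0.11 ± 0.37 SE). Old replicate 2 also stood high for X-linked genes as a whole: its median log2 level on that chromosome was 0.76 above the mean of the other 5 samples over 485 genes, and 0.57 above it for the 3 members there, Ndufb11, Ndufa1 and Cox7b. It stood above that mean by 0.34, 0.31 and 0.29 over the genes of chromosomes 11, 13 and 5 too, and young replicate 3 by 0.34 on chromosome 6. Without these 5 chromosomes, each with a median over 0.25 from the other samples in 1 sample, both old samples of the longer list lay above both young in 38 of 63 nuclear members and below in 0, against 18.3% and 22.9% of all genes. The part of the shifts in the values of single members there, such as Atp5g1 (11), Uqcrfs1 (13), Cox6a1 and Atp5k (5) and Ndufa4 (6), was not tested.

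Small accessory subunits of complex I held the widest spread. Ndufa1 stood at 584, 96.0 and 85.8 CPM in young samples against 199, 219 and 194 CPM in old ones. It had the lowest p of all members in the longer-list fit (log2 fold change 1.18 ± 0.22 SE, edgeR adjusted p = 0.722) and is singled out after its values were seen. Ndufa3 stood at 443, 65.8 and 66.6 CPM in young samples against 190, 97.2 and 99.4 CPM in old ones, with both shorter-list samples above all 4 others. Ndufb1-ps gave 951, 185 and 126 CPM in young samples against 601, 214 and 267 CPM in old ones, again highest in the shorter-list pair. For Ndufa3 and Ndufb1-ps, a difference between lists and one between cultures cannot be told apart. Ndufs1, the largest subunit, which carries iron-sulfur clusters, ranged from 58.0 to 84.4 CPM, and Ndufv1, which binds NADH, from 77.3 to 134 CPM.

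In complex II, Sdhb, the iron-sulfur subunit, stood at 277, 275 and 180 CPM in young samples against 212, 290 and 362 CPM in old ones (log2 fold change 0.22 ± 0.31 SE). Sdhd, a membrane anchor, stood at 136, 121 and 67.0 CPM in young samples against 82.3, 94.7 and 114 CPM in old ones (-0.14 ± 0.33 SE). Sdha, the flavoprotein, and Sdhc, the other anchor, ranged from 84.2 to 166 CPM and from 85.6 to 106 CPM. Young and old overlapped for all 4 genes.

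Complex III passes electrons on to cytochrome c. Its Rieske iron-sulfur protein gene Uqcrfs1 (chromosome 13, 30540308 to 30545362) stood at 216, 257 and 159 CPM in young samples against 161, 413 and 348 CPM in old ones, a log2 fold change of 0.45 ± 0.37 (SE). Uqcrh, the hinge protein, stood at 1083, 780 and 566 CPM in young samples against 578, 675 and 856 CPM in old ones (-0.17 ± 0.32 SE). Both overlapped between the ages. The small subunits Uqcrq and Uqcr10 reached 1929 and 1626 CPM in young replicate 1 and 444 and 445 CPM in young replicate 3, whereas the core proteins Uqcrc1 and Uqcrc2 stayed between 114 and 155 CPM and between 108 and 174 CPM.

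Complex IV, cytochrome c oxidase, had both the widest range of fold changes and the isoform genes described further on. Cox6b2, known as a testis isoform, had the largest fold change of all members (2.99 ± 1.36 SE) but a low level: 0.21, 0.15 and 0.04 CPM in young samples against 0.20, 2.50 and 1.14 CPM in old ones. Old replicates 2 and 3 held 463 and 197 counts and each of the other samples at most 33. Ndufa4, once assigned to complex I, had the smallest fold change (-0.35 ± 0.36 SE), with 2331, 2396 and 2842 CPM in young samples against 1072, 1953 and 3415 CPM in old ones. Cox6a1, whose promoter is shown, stood at 310, 168 and 149 CPM in young samples against 229, 331 and 272 CPM in old ones (0.48 ± 0.35 SE).

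Among the nuclear genes of ATP synthase, Atp5k, the e subunit, which helps ATP synthase form dimers, had the largest fold change (0.38 ± 0.33 SE), with 980, 235 and 186 CPM in young samples against 720, 355 and 369 CPM in old ones. The shorter-list pair was highest at both ages. Atp5a1, the alpha subunit of the catalytic head, had the smallest among them (-0.14 ± 0.27 SE), with 390, 728 and 476 CPM in young samples against 372, 615 and 446 CPM in old ones. Atp5b, the catalytic beta subunit, kept within 694 and 870 CPM in all 6 samples. The c subunit of the rotating ring is made from 3 genes with different import sequences: Atp5g1 held from 35.5% to 50.5% of their UMIs, Atp5g2 from 22.3% to 33.8% and Atp5g3 from 24.6% to 32.9%, with no common direction by age. The Atp5g genes encode the same mature protein, and their shares are uncertain where the counting could not place reads of similar copies.

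These fold changes depended on single samples. With 1 sample left out, 17 of the 27 nuclear genes named by rule changed sign at least once, and in 22 the highest value came without young replicate 1 or old replicate 1. Ndufb11 ranged from 0.11 to 1.08, Ndufc2 from -0.36 to 0.36, Sdhb from -0.031 to 0.52, Uqcrfs1 from 0.13 to 0.87, Cox6b2 from 1.91 to 4.22, Ndufa4 from -0.72 to 0.035, Cox6a1 from 0.28 to 0.93 and Atp5k from 0.15 to 0.78.

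The nuclear members were also compared by transcript length. Of 21 nuclear members with a principal transcript under 600 bases, all 21 were higher in old on the longer list (median 0.74) and 19 were lower in old on the shorter list (median -0.96). Between 600 and 1200 bases the counts were 38 and 37 of 39 (medians 0.45 and -0.70), and above 1200 bases 22 and 19 of 24 (medians 0.26 and -0.34). Among genes outside the chain under 600 bases, 49.7% were above 0 on the longer and 55.6% below 0 on the shorter list. Between 600 and 1200 bases these shares were 68.1% and 70.4%, in the members' direction, and above 1200 bases 48.6% and 47.1%, against 50.5% and 49.5% of all genes.

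Across the 84 nuclear members, Spearman's rho between transcript length and the old-young difference was -0.41 for the longer list and 0.40 for the shorter one, and across 14410 genes outside the chain -0.20 and 0.18. These are descriptions across genes of the same libraries. Members under 600 bases were also higher on the shorter list at equal weight of the ages (median 0.35, 18 of 21), as were 61.5% of genes outside the chain of that length, while of the members between 600 and 1200 bases 15 of 39 were. In young replicate 1 the median of the members under 600 bases stood 0.80 above the mean of the 6 samples and in young replicate 3 0.82 below it.

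**Figure D3:**
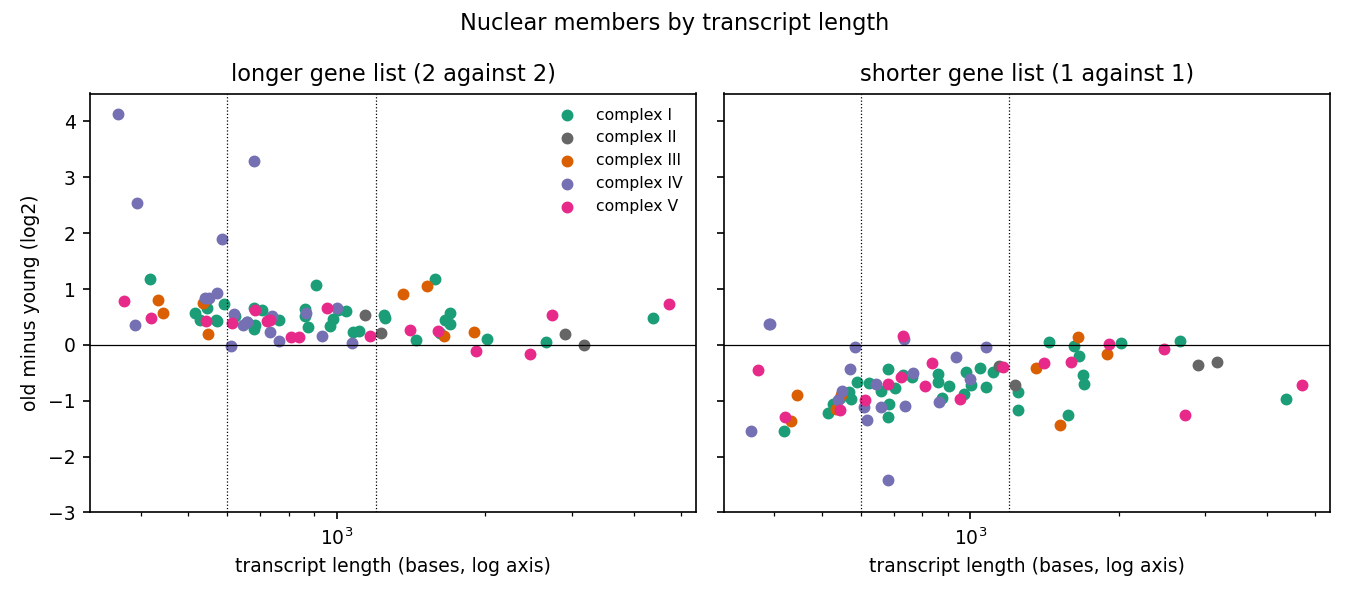
Old minus young difference in log2 level of the 84 nuclear members against transcript length (log axis), on the longer (left) and shorter (right) gene list, coloured by complex, with dotted lines at 600 and 1200 bases. The 21 members left of the first line all lie above 0 on the longer list and 19 of them below 0 on the shorter.

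The mitochondrial genes ranked the samples differently from the nuclear ones. The 13 genes summed to 24441, 33106 and 26130 CPM in young samples against 21653, 24897 and 27578 CPM in old ones, with young replicate 2 highest and old replicate 1 lowest. The log2 difference was -0.17 (exact permutation p = 0.5) and nearly equal for both lists (-0.17 for each). With 1 sample left out it ranged from -0.26 (without young replicate 1) to -0.039 (without young replicate 2). Both groups overlapped.

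The ratio of nuclear to mitochondrial counts over complexes I, III, IV and V does not depend on scaling between samples. Young replicates 1, 2 and 3 gave 2.40, 1.15 and 1.15, and old replicates 1, 2 and 3 gave 1.504, 1.78 and 1.77. On the longer list both old values lay above both young (log2 difference 0.63), and on the shorter list the old value lay below the young (-0.68). Over all 6 samples the difference was 0.19 (exact permutation p = 0.8), and with 1 sample left out it ranged from 0.012 (without young replicate 2, and nearly so without young replicate 3) to 0.55 (without young replicate 1).

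Each complex with both kinds of subunit repeated this order of ages within the lists. For complex I the young ratios were 3.36, 2.13 and 2.10 against old ratios of 1.94, 3.47 and 3.54. Complex V spread most, with young ratios of 3.72, 1.09 and 1.17 against 2.45, 1.90 and 1.86. Complexes III and IV ranged from 0.79 to 1.54 and from 0.92 to 1.79. The median cell gave the same picture: the mitochondrial genes held 2.41%, 3.098% and 2.71% of a young cell's UMIs and 2.36%, 2.50% and 2.51% of an old cell's, and the nuclear members 4.91%, 3.73% and 3.25% against 3.59%, 4.61% and 4.62%.

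Single mitochondrial genes moved apart from each other. Of the 13, mt-Atp8 was the only member of all 97 whose young and old values did not overlap over 6 samples (3.63% of all genes had old above and 2.42% old below). This small ATP synthase subunit stood at 112, 96.5 and 42.7 CPM in young samples against 116, 128 and 126 CPM in old ones. The gap between the groups was small beside the fall in young replicate 3, and the test did not call it (log2 fold change 0.60 ± 0.38 SE, edgeR adjusted p = 1.00). Its frame (chromosome M, 7766 to 7969) shares 43 bases with mt-Atp6, and both lie on 1 messenger RNA, so counts of this pair can depend on how reads in the overlap were assigned.

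mt-Atp6 itself, the proton channel subunit, went the other way, with 4496, 10868 and 7608 CPM in young samples against 4132, 6649 and 7426 CPM in old ones (-0.30 ± 0.23 SE). Both shorter-list samples were lowest. On the longer list old lay below young for mt-Nd1, mt-Nd2, mt-Nd3, mt-Co3 and mt-Atp6, and above for mt-Nd4l, mt-Co1 and mt-Atp8. These are 5 and 3 of 13, against 20.1% and 20.2% of all genes. For mt-Nd1, a membrane-arm subunit of complex I, the levels were 1188, 1443 and 1243 CPM in young samples against 1449, 901 and 885 CPM in old ones, lowest in old replicates 2 and 3. For mt-Co1, the catalytic subunit of complex IV, they were 2431, 2125 and 2571 CPM in young samples against 2333, 3106 and 3039 CPM in old ones, highest in the same pair.

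The complex I genes mt-Nd2 and mt-Nd3 were, like mt-Nd1, lowest in old replicates 2 and 3. mt-Nd2 gave 915, 1023 and 736 CPM in young samples against 1108, 597 and 606 CPM in old ones. mt-Nd3 gave 416, 259 and 239 CPM in young samples against 505, 165 and 176 CPM in old ones. The highest sample was old replicate 1 for both. mt-Nd4l gave 598, 327 and 195 CPM in young samples against 314, 476 and 537 CPM in old ones, and shares 7 bases with mt-Nd4, which kept within 1092 and 1544 CPM. mt-Co3, a core subunit of complex IV, ranged from 2212 CPM in young replicate 1 to 3692 CPM in young replicate 2.

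The remaining mitochondrial genes showed no separation by age on either the 6 samples or the longer list. mt-Cytb, the only mitochondrial gene of complex III, ranged from 3641 to 5059 CPM. mt-Co2, which takes electrons from cytochrome c, ranged from 4007 to 6876 CPM. mt-Nd5 ranged from 168 to 218 CPM. mt-Nd6, the only one of the 13 on the light strand, ranged from 13.6 to 43.5 CPM, and it shares 14 bases with mt-Nd5 on the opposite strand.

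**Figure D4:**
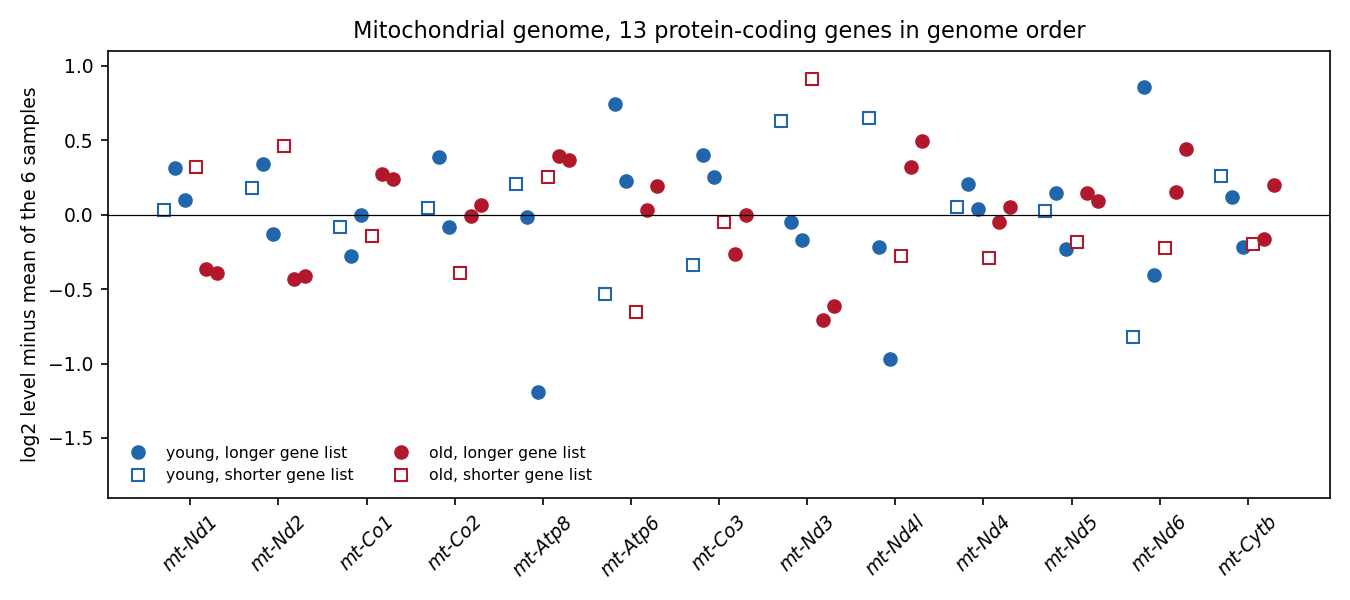
Log2 level of each of the 13 mitochondrial protein-coding genes minus its mean over the 6 samples (y), in genome order (x). Each point is 1 sample, blue young and red old, open squares for the shorter gene list. The order of samples differs from gene to gene, and mt-Atp8 is the only gene with all old points above all young points.

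The muscle isoforms of complex IV varied widely between cultures of the same age. Cox6a2, the muscle form of subunit 6a (chromosome 7, 128205435 to 128206387), stood at 4.51, 7.85 and 0.43 CPM in young samples against 0.44, 11.4 and 61.4 CPM in old ones. Old replicate 3 was highest and young replicate 3 and old replicate 1 lowest, the same samples as at the ends for the 13 differentiation genes. As a share of the Cox6a1 and Cox6a2 UMIs, Cox6a2 held 1.43%, 4.47% and 0.288% among young samples against 0.190%, 3.33% and 18.4% among old ones, with an exact binomial 95% interval of 18.1% to 18.7% for old replicate 3 that covers counting error only. Without old replicate 3 the difference in mean share between old and young changed from 5.25 to -0.31 percentage points.

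Cox8b, the muscle form of subunit 8 (chromosome 7, 140898945 to 140900446), stood at 6.80, 2.95 and 0.23 CPM in young samples against 2.01, 37.1 and 20.1 CPM in old ones. Old replicates 2 and 3 were highest, but old replicate 1 lay below young replicates 1 and 2 (log2 fold change 2.73 ± 1.97 SE). With 1 sample left out, the fold change of Cox8b ranged from 0.94 (without young replicate 3) to 4.17 (without old replicate 1). Leaving out young replicate 1 gave nearly the same value, since either setting rests on the longer-list samples only. Cox7a1, the muscle form of subunit 7a, stood at 2.80, 17.6 and 0.18 CPM in young samples against 3.78, 29.7 and 13.3 CPM in old ones (1.00 ± 1.34 SE). It ranged from 0.35 without young replicate 3 to 3.77 without young replicate 2. The groups overlapped for all 3 muscle genes, and the sample with the highest level was not the same: old replicate 3 for Cox6a2 and old replicate 2 for Cox8b and Cox7a1.

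The widespread partners held most UMIs in each sample. Cox6a1 held at least 81.6% of its pair, with the lowest share in old replicate 3. Cox8a, with 2463, 1796 and 926 CPM in young samples against 1395, 2128 and 2500 CPM in old ones, held at least 98.3% of the Cox8 UMIs in each sample. In the Cox7a group Cox7a2 held from 75.3% to 90.7% and Cox7a2l, which takes part in supercomplex assembly, from 9.12% to 23.0%. Cox4i2, the isoform known from lung and from low oxygen, held at most 0.0243% of its pair, Ndufa4l2, also linked to low oxygen, at most 0.00417%, and the testis forms Cox6b2, Cox7b2 and Cox8c at most 0.312%, 0.0122% and 0.000427%. Cox8c had 1 count in old replicate 1 and 0 in the other samples, where a count of 0 allows a share of up to 3 counts.

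**Figure D5:**
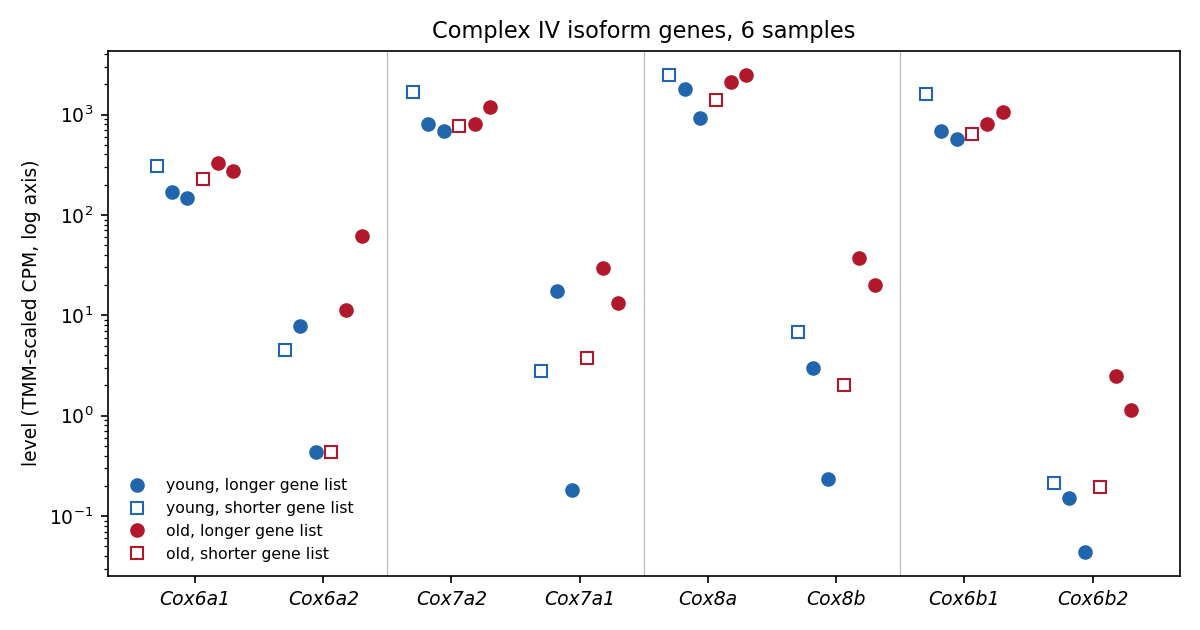
TMM-scaled CPM (log axis) of the widespread (Cox6a1, Cox7a2, Cox8a, Cox6b1) and of the muscle or testis form (Cox6a2, Cox7a1, Cox8b, Cox6b2) of 4 complex IV subunits. Each point is 1 sample, blue young and red old, open squares for the shorter gene list. The muscle forms spread over more than 10-fold between samples and each lies below its partner in every sample.

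To see which cells carried these isoforms, cells were thinned to 5000 UMIs each, and those with UMIs of 3 or more of the 13 differentiation genes were called differentiating cells. This is a range of a score and not a cell type, with 3981 cells at exactly 2 genes and 2335 at exactly 3, and 1348 shallower cells were left out. The class held 342, 1855 and 176 cells in the young samples (4.05%, 17.4% and 1.66%) and 59, 1126 and 6758 in the old (0.596%, 13.2% and 55.5%).

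Cox6a2 was concentrated in these cells in every sample: they held 92.2%, 91.1% and 83.7% of its UMIs at young age against 73.6%, 83.4% and 98.1% at old age. Its level was 100.0, 42.1 and 27.5 CPM in differentiating cells of young samples against 66.4, 73.5 and 101.9 CPM in those of old ones. All levels given by cell class are CPM without TMM scaling. In the other cells it was between 0.08 and 2.42 CPM. Free RNA in the droplets adds some UMIs to all cells. Its part in the lower values, and in which cells reached the limit of the class, was not tested.

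Cox8b was also enriched, with 12.2 to 181.6 CPM in differentiating and 0.07 to 27.3 CPM in other cells. In old replicate 2, however, the differentiating cells held only 39.0% of its UMIs, and the other cells reached 27.3 CPM against at most 3.09 CPM elsewhere. Cox7a1 followed the class least closely, with 2.70% to 76.8% of its UMIs there, although its level was higher in the class in every sample. These shares also depend on the size of the class, and the lowest rests on 1 UMI in it and 36 outside (young replicate 3). In the other cells of young replicate 2 and old replicate 2 Cox7a1 stood at 13.3 and 26.1 CPM. Cox8a and Cox6a1, the widespread forms, were also higher in the class in 6 of 6 samples. Cox8a stood at 2322 CPM in it and 1542 CPM in other cells of old replicate 1, where the gap was widest, and at 1248 and 999 CPM in young replicate 3, the lowest sample. Cox6a1 ranged from 167 to 407 CPM in the class and from 160 to 336 CPM outside it.

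All complexes were higher in differentiating cells. The summed level of complex I nuclear genes was higher in them in 6 of 6 samples, by a mean log2 ratio of 0.35 (SD 0.11, n = 6). The means were 0.20 for complex II, 0.41 for III, 0.37 for IV, 0.35 for V and 0.32 for the mitochondrial genes, each above 0 in 6 of 6 samples. The two-sided exact sign-flip permutation p was 0.03125 for each sum, the smallest that 6 samples allow, and 0.03125 after adjustment over the 6 sums. The ratio of nuclear to mitochondrial counts was 0.05 higher (SD 0.17, exact permutation p = 0.656, 3 samples above and 3 below 0).

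Old replicate 1, with 59 cells in the class, contributed the highest log2 ratio for complexes I, II, III and IV (0.52, 0.34, 0.64 and 0.57) and the lowest for the mitochondrial genes (0.17). With 4 or more genes required it drops out, and the test over 5 samples cannot pass 0.05 (exact p = 0.0625), with mean ratios between 0.17 and 0.39. Mean UMIs per cell were 13532 to 21120 in the class and 14853 to 20735 outside it. They were lower in the class in every young sample and in old replicate 1, and slightly higher in old replicates 2 and 3. The part of depth in the class differences was not tested.

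Among the cells outside the class, complex I summed to 13247, 9900 and 9016 CPM in young samples against 9970, 12937 and 11598 CPM in old ones. Young replicate 1 was highest and young replicate 3 lowest, as over all cells, and old replicates 2 and 3 lay above young replicates 2 and 3. The ratio of nuclear to mitochondrial counts in these cells was 2.41, 1.15 and 1.16 at young age against 1.504, 1.78 and 1.76 at old age, nearly the values over all cells.

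Cells with UMIs of 3 or more of 10 genes of cell division such as Mki67 and Top2a, called mitotic cells here, showed the opposite sign. This class too is a range of a score and not a count of cells in mitosis, with 6027 cells at exactly 2 genes and 6225 at exactly 3. It made up 38.3%, 49.0% and 71.1% of cells at young age against 65.2%, 31.8% and 53.3% at old age. Complex I was lower in mitotic than in the remaining cells in 6 of 6 samples, by a mean log2 ratio of -0.14 (SD 0.06, n = 6). Complexes III, IV and V (-0.14, -0.12 and -0.13) and the mitochondrial genes (-0.16) were also lower in 6 of 6 (exact sign-flip permutation p = 0.03125, adjusted p = 0.0375). Complex II was lower in 4 of 6 (-0.05, exact permutation p = 0.125). Mean UMIs per cell were higher in mitotic than in the remaining cells in 6 of 6 samples (16157 to 22553 against 13337 to 19961), and the part of depth in these differences was not tested. Differentiating cells are known to leave the cell cycle, and mitotic cells were not compared with cells in neither class.

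Other genes of the pathway were taken from lists of known members. Of 50 assembly factors, which build the complexes without being part of them, 49 were tested and 0 passed adjustment in either direction (median log2 fold change -0.02). On the longer list 28 of 49 were higher and 3 lower in both old samples, against 20.2% and 20.1% of all genes. On the shorter list 43 of 49 were lower in old, against 49.5% of all genes. Cox17, a copper carrier for complex IV, stood at 604, 256 and 111 CPM in young samples against 315, 297 and 293 CPM in old ones, and Coa3, which assists translation of mt-Co1, at 213, 187 and 194 CPM in young samples against 154, 397 and 337 CPM in old ones. Both were higher in old on the longer and lower in old on the shorter list, and were chosen after their values were seen.

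Of genes for expression of the mitochondrial genome and for mitochondrial biogenesis, 31 were tested and 0 passed adjustment, with 0 at an unadjusted edgeR p under 0.05. On the longer list 4 were higher and 4 lower in both old samples (12.9% each, against 20.2% and 20.1% of all genes), and the median difference on that list was -0.04. Tfam, which packages mitochondrial DNA and starts its transcription, ranged from 27.4 to 44.0 CPM. Nrf1 stood at 20.7, 29.9 and 43.4 CPM in young samples against 25.6, 22.7 and 26.6 CPM in old ones. Ppargc1a, a coactivator of mitochondrial biogenesis, stood at 9.71, 40.9 and 23.4 CPM in young samples against 6.75, 49.8 and 8.63 CPM in old ones, highest in young replicate 2 and old replicate 2. Chain subunits and carriers that the symbol rule does not reach (Ndufab1, Cyc1, Cycs, Dmac2l and Atpif1) were tested with 0 of 5 called. All 5 were higher in old on the longer list by mean difference and lower on the shorter, a combination found in 29.5% of all genes.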

How the data were processed

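The authors deposited, per sample, raw UMI counts per gene and cell, whole numbers made with Cell Ranger 7.0.0 (shorter list) or 7.2.0 per the file headers. The submitters' processing notes list Cell Ranger 7.2.0, Seurat and mm10. How intronic reads and reads in overlapping genes were counted is not given in the sources used here. Kept cells had at least 1000 UMIs, at least 500 genes and under 15% of UMIs from the 13 mitochondrial genes (967 shallow and 209 high-mitochondrial barcodes left out). Doublets were not removed.

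Counts over the 21485 shared identifiers were summed per sample and tested in R 4.3.3 with edgeR 4.0.16 (TMM factors, filterByExpr, robust quasi-likelihood F test, terms for gene list and group, two-sided, Benjamini-Hochberg over all 14512 genes at 0.05). The test was checked on simulated counts. SEs are the absolute fold change over the square root of F. Differences within a list are of log2(CPM + 0.5) for genes and of log2 sums for complexes. Sums and ratios were tested with two-sided exact permutation tests over samples (20 assignments), and cell classes with exact sign-flip tests over samples. Isoform shares are described with exact Clopper-Pearson 95% intervals. Gene positions and transcript lengths are from GENCODE M21 (GRCm38).

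The members and gene lists were chosen with earlier results of these data known. Named genes are all mitochondrial members and isoform genes, the members with the largest and smallest fold change among the nuclear genes of each complex, and the 5 most variable at 10 CPM or more, while others are shown for their role. DESeq2 1.42.0, other scalings, filters and cell limits, and leaving out samples were tried as alternatives. Same-numbered samples are not paired by the labels.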

Additional observations from a re-analysis of the deposited data

Results flagged for a closer look

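The old-young difference in the log2 ratio of nuclear to mitochondrial counts was 0.626 for the 4 samples of the longer gene list and -0.677 for the pair of the shorter one. It is listed because every sample of one list moved one way and the pair of the other list the opposite way. The difference between the lists was not tested for the ratio. The shorter list has 1 sample of each age, and list and culture cannot be told apart.

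A second entry named Atp5o, outside the shared identifiers and so outside every comparison, held 113 counts in young replicate 1 and 567 in old replicate 1. It is listed as signal in data the comparisons do not use. It overlaps the Atp5o member on the same strand, and how reads in the overlap were divided between the entries was not tested.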

How the results depend on the processing

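No respiratory chain gene was called under any alternative run: RLE scaling, no filter on low counts, no gene list term, DESeq2, 3 other limits on cells, library totals from nuclear genes, the longer list only and each sample left out. The count over all genes was 1, and moved to 0 with no list term or on the longer list only, to 270 with DESeq2, and to between 0 and 3 with a sample left out (0 without young replicate 1 or old replicate 1, 3 without young replicate 3).

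Leaving out each sample gave nuclear medians from -0.13 (without young replicate 3, and -0.027 without old replicate 3) to 0.48. The value of 0.48 came without young replicate 1 or old replicate 1, where only the longer-list samples give the change. For the sums the ranges were -0.14 to 0.32 in complex I, -0.087 to 0.24 in II, -0.23 to 0.49 in III, -0.21 to 0.22 in IV and -0.21 to 0.26 in V. On the longer list only, the differences were 0.50 in complex I, 0.66 in III and 0.42 in IV. Complex IV changed sign without the deepest 10% of cells (0.0073) and without TMM scaling (0.061), and complex V with DESeq2 size factors (-0.000174). The cause was not tested. Requiring 4 differentiation genes gave mean ratios of 0.35, 0.17, 0.39, 0.35 and 0.34 for complexes I to V and 0.37 for the mitochondrial genes (exact p = 0.0625 over 5 samples, which is the smallest possible).

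With the replicate number as a block in place of the list, 1 gene and 0 members were called, and the nuclear median was 0.09. Deviations of same-numbered samples correlated by 0.38, 0.22 and -0.08 over 14512 genes, and young replicate 2 correlated more with old replicate 3 (0.28) than with old replicate 2. The pair at 0.38 also shares the shorter gene list. These correlations cannot decide whether same-numbered samples are paired, and the numbers are used here only to name samples.

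Among 40 named genes, 67 of 639 fold changes under alternatives moved by more than their SE, 64 of them in settings that leave out samples.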
